A study of Homo sapiens with 12 samples.

Results

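The 38 genes described here encode enzymes assigned to butanoate and propanoate metabolism and to the breakdown of valine, leucine and isoleucine, the branched-chain amino acids. AADAC among them is an esterase that the study counted with its butanoate genes. The 38 genes were listed by name, with earlier results of these arrays known. Each was read from the probe set with a single gene symbol and the highest mean over the 12 arrays. All 38 were measured, among 18417 genes tested. ECHS1 and ACADSB, which sit close to the distal tip of chromosome 10q, were kept apart from the other 36.

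Gene expression was measured on Affymetrix GeneChip Human Gene ST arrays in A172 cells, an adherent human glioblastoma line, harvested 4 days after plating. Wild-type A172 cells carried no vector and grew without drug selection. Mock cells (A172-PC) were stably transfected with the empty pcDNA3.1 vector, and clone 7 and clone 8 with pcDNA3.1 carrying His-tagged hHSS1, and these lines were kept under G-418. Each group had 3 cultures with 1 array each, but mock is 1 line and each clone is 1 line, so that p-values measure the spread between cultures and not between independently made lines.

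Breakdown of the branched-chain amino acids starts with removal of the amino group by the transaminases BCAT1 and BCAT2 and an irreversible decarboxylation by the branched-chain keto acid dehydrogenase complex. The resulting branched acyl-CoAs then pass through dehydrogenation, hydration and oxidation in mitochondria, steps that resemble fatty acid oxidation. Leucine ends as acetyl-CoA and acetoacetate, valine as propionyl-CoA, and isoleucine as both acetyl-CoA and propionyl-CoA, which is carboxylated and enters the tricarboxylic acid cycle as succinyl-CoA. Butanoate metabolism shares its acyl-CoA steps with these routes and adds the enzymes of ketone bodies and of the transmitter GABA. Glioblastoma is known for high BCAT1 in many tumours.

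EMC10, the present symbol of the transfected gene, had mean log2 levels of 10.75 for wild-type, 9.35 for mock, 11.87 for clone 7 and 12.02 for clone 8. Medians over an array ranged from 8.60 to 8.67, and the lowest lower quartile of an array was 7.00. Of the astroglial and glioma markers, vimentin (VIM) had group means from 13.50 to 13.72 and CD44 from 13.20 to 13.53. GFAP, the astrocyte filament, lay between 8.65 and 8.79, whereas S100B and AQP4 were under the lower quartile in each group. Of the 9 markers, 2 fell in the clones against mock by limma's adjusted p, namely NES, the progenitor filament nestin (log2 -0.73 ± 0.06), and SOX2, a stem cell factor (log2 -0.32 ± 0.08), and on each clone array both lay below each control array. Of the 4 measured markers in each of the leukocyte, endothelial, epithelial and hepatocyte lists, 0 passed limma's adjusted p in that comparison. At an unadjusted p under 0.05 there were 2 epithelial ones (EPCAM at log2 0.18 and KRT8 at -0.11) and 0 in the other lists. The part of these differences in the results was not tested.

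Arrays of the 2 clones did not sort by their labels. Clone 7 replicate 1, clone 7 replicate 2 and clone 8 replicate 3 were alike, and so were clone 7 replicate 3, clone 8 replicate 1 and clone 8 replicate 2. Within these sets, 0 to 6 of all genes differed by more than 1 on the log2 scale between a pair of arrays, against 142 to 211 for a pair across them. Of the 6 clone arrays, 2 correlated best over all genes with an array of their own clone. The member genes did the same, since 26 of 38 on clone 7 replicate 3, and 30 of 38 on clone 8 replicate 3, lay nearer to the mean of the other clone's replicates 1 and 2. The labels were kept as given, and results that rest on a clone are also given without the clone arrays numbered 3. Leaving out arrays for their likeness to the other clone narrows the spread within a clone, so that p-values of those fits are too small. With all 6 clone arrays, the size of the difference of both clones together from mock does not depend on the clone labels, because it gives the arrays equal weight. Its p-values do depend on them, because each gene has 1 estimate of the spread for all comparisons. By limma's adjusted p, 6.38% of all genes passed in this comparison with all arrays and 13.1% without those numbered 3.

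In both clones together against mock, 3 of the 38 genes were called higher and 0 lower, a call being an adjusted p under 0.05 and a change of at least 1.5-fold. These were AADAC, an esterase of the endoplasmic reticulum, and ECHS1 and ACADSB from the end of chromosome 10. Over all genes tested, the same rule called 0.728% (0.407% higher and 0.32% lower), against 7.89% of the member genes. The member genes were listed with earlier results of these arrays known, and the study had already reported AADAC and ECHS1 from them. The larger share among the members is therefore not independent evidence, here or by the adjusted p alone. By the adjusted p alone, 4 rose and 2 fell, which is 15.8% of the member genes against 6.38% of all genes (2.87% higher and 3.51% lower). The members lay on both sides of 0, with 19 members above and 19 below mock and a median log2 difference of -0.01, against 0.01 over all genes. Away from chromosome 10q, 1 of 36 was called (AADAC), and 4 of 36 passed the adjusted p (AADAC and EHHADH higher, HADH and DLD lower). With the clone arrays numbered 3 left out, 2 of 38 were called (AADAC and ECHS1), beside 1.04% of all genes, and 5 rose and 3 fell by the adjusted p alone, beside 13.1% of all genes.

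Separation of the arrays was also counted without a model. On each of the 6 clone arrays 5 members lay above the 3 mock arrays (AADAC, ECHS1, ACADSB, EHHADH and HADHB), beside 5.77% of all genes, and 4 lay below them (HADH, DLD, BCKDHB and BDH1), beside 8.39%. That is 13.2% and 10.5% of the member genes. With wild-type counted as well, 2 lay above all 6 control arrays (AADAC and ECHS1), beside 2.55% of all genes, and 2 below them (HADH and BCKDHB), beside 4.27%.

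**Figure D1:**
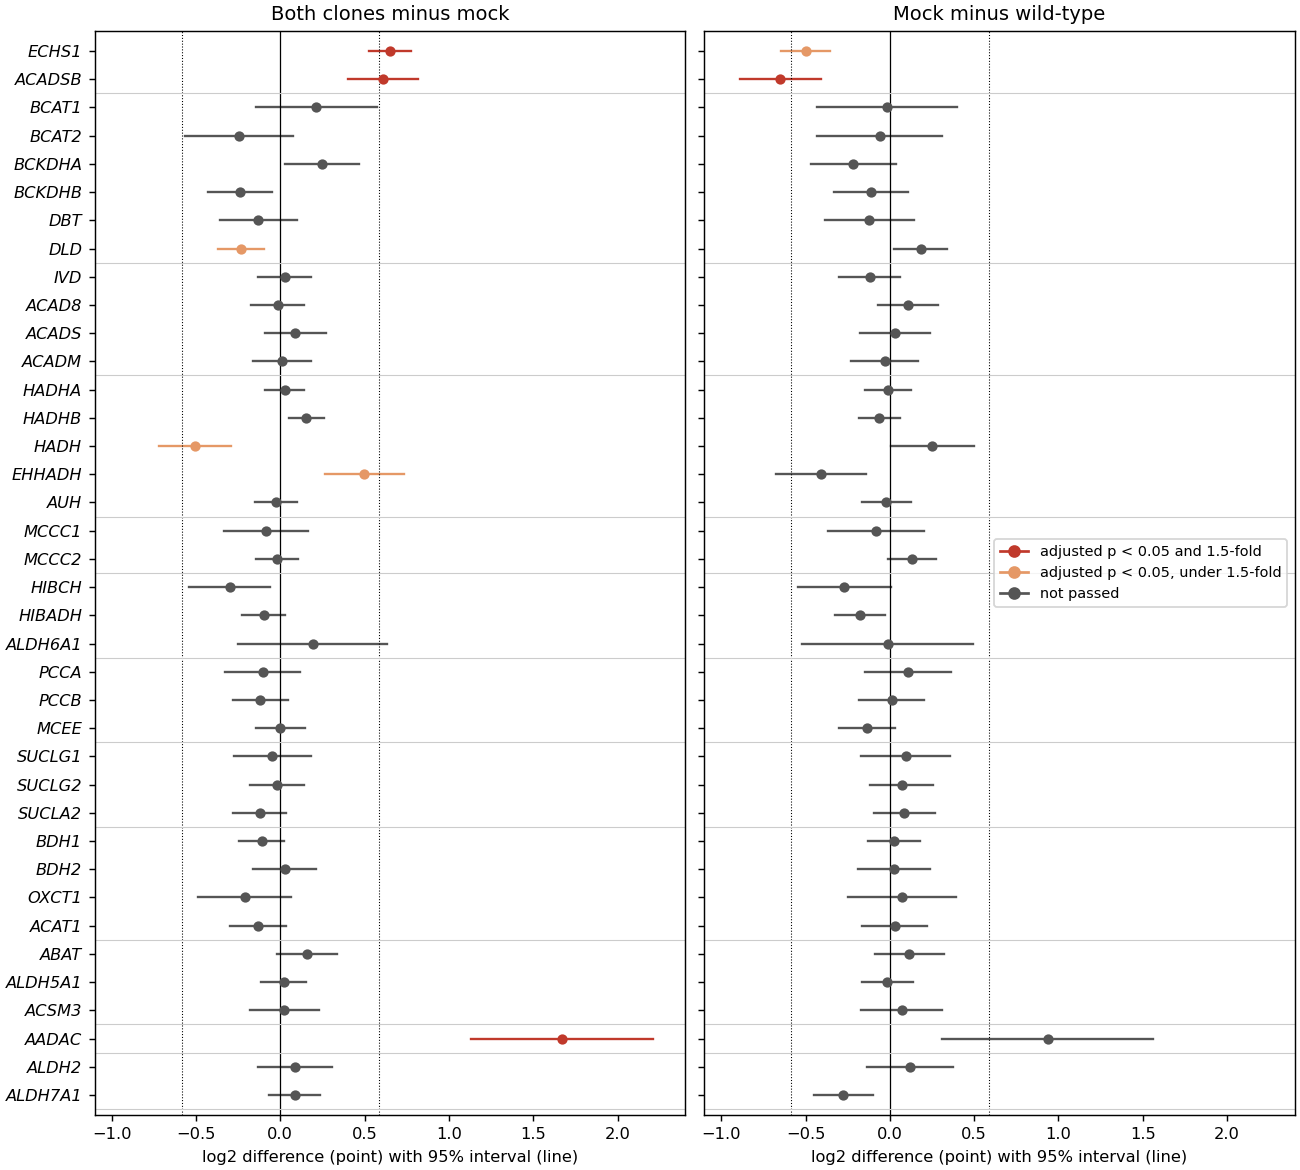
Log2 difference with its 95% interval for each of the 38 genes, ordered by role, for both clones against mock (left) and mock against wild-type (right). Dotted lines mark 1.5-fold. In the left panel AADAC, ECHS1 and ACADSB are past both limits, and in the right panel ECHS1 and ACADSB lie on the opposite side of 0.

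AADAC, arylacetamide deacetylase, hydrolyses esters and arylamides and is best known from liver and intestine. Its log2 level was 9.06, 9.22 and 9.89 in clone 7 and 9.70, 9.99 and 8.77 in clone 8. In mock it was 7.70, 7.82 and 7.78, and in wild-type cells 6.41, 7.05 and 7.04. Thus the 6 clone arrays lay above the 6 control arrays, and mock lay above wild-type with no overlap. The clones were 3.18-fold above mock (log2 1.67 ± 0.25 SE, limma adjusted p = 0.00234), with log2 1.62 in clone 7 and 1.72 in clone 8. Against wild-type they were 6.09-fold higher (log2 2.61 ± 0.25, adjusted p = 5.96e-05), but the wild-type mean, 6.83, was under the lowest lower quartile of an array, so that the size of this fold is uncertain. In RNA from whole cultures, a larger share of cells with a transcript and more transcript per cell cannot be told apart.

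The step from wild-type to mock in AADAC was log2 0.94 ± 0.29 (adjusted p = 0.143) and did not pass over all 12 arrays. In the fit that left out the clone arrays numbered 3, where the pooled spread is lower, the same difference had an adjusted p of 0.00255 by limma and was called. The call of clone 7 against mock was lost without mock replicate 1 (adjusted p = 0.0519). Without the arrays numbered 3 the rise over mock was log2 1.38 in clone 7 and 2.07 in clone 8. Of the 4 hepatocyte markers, ALB was under the lower quartile in each group, with group means from 5.86 to 6.11. APOA1 (8.80 to 8.96), TTR (7.89 to 8.03) and SERPINA1 (8.36 to 8.55) were under it in 0 groups. None of the 4 passed in the clones against mock by limma, and 0 did at an unadjusted p under 0.05. AADAC was among the genes the study reported from these arrays, and its direction here is not independent evidence.

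The 250 bases before the annotated start of AADAC are shown with those of ECHS1, so that the base composition at the starts of these called genes can be read side by side. Capitals mark matches, on either strand, to the GC box (GGGCGG) and the CCAAT box (CCAAT), 2 common promoter motifs. They were taken from RefSeq, assembly GRCh38.p14, and are written 5′ to 3′ on the strand of the gene.
AADAC, chr3:151813866-151814115, plus strand: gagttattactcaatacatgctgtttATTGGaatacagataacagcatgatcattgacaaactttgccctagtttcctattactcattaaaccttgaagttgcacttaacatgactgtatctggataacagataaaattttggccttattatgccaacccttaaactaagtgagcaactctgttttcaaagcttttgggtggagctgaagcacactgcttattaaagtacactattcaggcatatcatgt
ECHS1, chr10:133373355-133373604, minus strand: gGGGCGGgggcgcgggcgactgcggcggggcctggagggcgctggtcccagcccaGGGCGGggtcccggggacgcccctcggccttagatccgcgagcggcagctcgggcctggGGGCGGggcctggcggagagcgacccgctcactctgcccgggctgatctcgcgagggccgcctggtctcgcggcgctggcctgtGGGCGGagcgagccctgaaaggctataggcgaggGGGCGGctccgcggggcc

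The AADAC window held 35.6% G and C and 0 CpG pairs. Only 6.7% of 35116 windows of this length had as low a G and C content, and the median was 58.0% with 11 CpG pairs. The ECHS1 window held 79.6% G and C, 32 CpG pairs and 5 GC boxes, whereas AADAC had 0 GC boxes and 1 CCAAT box, which reads ATTGG on the strand shown. A GC box was present in 42.6% of all windows and a CCAAT box in 32.0%, and no matches overlapped in either window shown. Neither TATAAA, found in 10.7% of all windows, nor AGGTCA, a half-site of nuclear receptors found in 12.1%, occurred in either. Of the 38 genes, 33 had an entry, with 47 windows in all, a median G and C content of 64.0% and a median of 18 CpG pairs.

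ECHS1, the short-chain enoyl-CoA hydratase of mitochondria, acts in valine and isoleucine breakdown and in fatty acid oxidation. The 3 wild-type cultures gave log2 levels of 10.68, 10.81 and 10.71, and the 3 mock cultures 10.33, 10.21 and 10.17. Clone 7 gave 10.89, 10.91 and 10.84, and clone 8 gave 10.86, 10.83 and 10.98. The clone arrays lay above each control array, closely above wild-type and further above mock. The clones were 1.57-fold above mock (log2 0.65 ± 0.06, limma adjusted p = 7.05e-05), with log2 0.65 in clone 7 and 0.66 in clone 8. Mock itself lay log2 -0.50 ± 0.07 from wild-type (adjusted p = 0.00154). Both clones differed from wild-type by log2 0.15 ± 0.06 (95% interval 0.03 to 0.28, adjusted p = 0.118), which did not pass. Its direction against mock, too, was among the study's own results from these arrays.

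ACADSB encodes the short and branched-chain acyl-CoA dehydrogenase, which oxidizes the isoleucine-derived acyl-CoA. Its log2 level was 7.99, 8.18 and 8.04 in mock against 8.61, 8.78 and 8.77 in wild-type cells. In clone 7 it was 8.80, 8.76 and 8.80, and in clone 8 8.27, 8.77 and 8.66. Mock was thus the low group, and the clones and wild-type overlapped. The clones were 1.52-fold above mock (log2 0.61 ± 0.10, limma adjusted p = 0.00328), and mock was lower than wild-type by 1.57-fold (log2 -0.65 ± 0.11, adjusted p = 0.00845). Clones and wild-type were log2 -0.04 apart (95% interval -0.25 to 0.17, adjusted p = 0.816). The rise over mock was close to the limit of 1.5-fold, and fell under it without the clone arrays numbered 3 (log2 0.58), without mock replicate 1 (log2 0.57), without clone 8 replicate 2 (log2 0.56) or replicate 3 (log2 0.58), with quantile normalization (log2 0.58) and with array weights (log2 0.55). The call of mock against wild-type was lost without mock replicate 1 (adjusted p = 0.0515).

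Some of the other genes between ACADSB and the tip of 10q moved the same way. There, 63 genes were tested besides ECHS1 and ACADSB. In the clones against mock 11 of them were called higher and 0 lower, beside 0.728% of all genes. In mock against wild-type 0 were called higher and 13 lower, beside 0.673%. In the clones against wild-type 1 was called higher, beside 1.58%. By limma's adjusted p alone, 24 were higher in the clones against mock and 19 lower in mock against wild-type, beside 2.87% and 1.24% of all genes. The median log2 differences of the 63 were 0.15 in the clones against mock, -0.07 in mock against wild-type and 0.04 in the clones against wild-type. The 29 of them with a mean level above the all-gene median of 9.21 had medians of 0.49, -0.56 and -0.03, whereas the 35 genes at or under that level, ACADSB included, had medians of 0.09, -0.01 and 0.09. Of the 614 chromosome 10 genes before ACADSB, 10 were called higher and 1 lower in the clones against mock, and 3 higher and 6 lower in mock against wild-type. The cut was set at ACADSB itself. Just before it, IKZF5 was at log2 0.68 in the clones against mock and -0.87 in mock against wild-type. C10orf88 was at 0.67 and -0.78, and PSTK at 0.28 and -0.13. Near ACADSB, BUB3, a mitotic checkpoint gene, was at log2 0.62 in the clones against mock and -0.75 in mock against wild-type. Near ECHS1, MTG1 was at 0.49 and -0.56. Not each neighbour moved as far. HMX3, the next gene tested after ACADSB, was at 0.09 and -0.07. FUOM and PAOX, the genes tested beside ECHS1, were at 0.13 and -0.01 and at 0.18 and -0.16. When the clone arrays numbered 3 were left out, 11 of the 63 were called higher and 0 lower in both clones together against mock, beside 1.04% of all genes. The part of this position in the differences of ECHS1 and ACADSB was not tested.

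**Figure D2:**
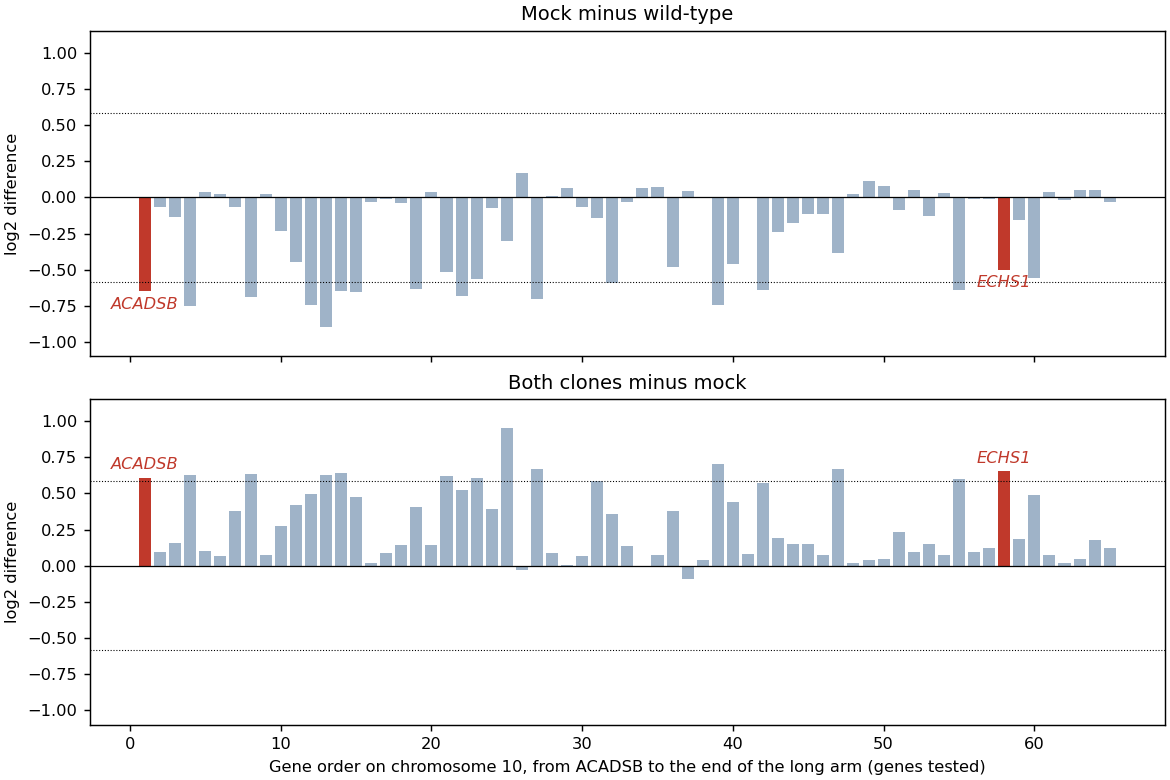
Log2 difference of 65 genes in their order from ACADSB to the tip of chromosome 10q, in mock against wild-type (top) and in both clones against mock (bottom), with ECHS1 and ACADSB in red and dotted lines at 1.5-fold. Many bars below 0 in the top panel stand above 0 in the bottom panel.

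Of the enzymes of hydration, hydroxyacyl oxidation and thiolysis, HADH and EHHADH moved in opposite directions, both by less than 1.5-fold. HADH, the mitochondrial short-chain hydroxyacyl-CoA dehydrogenase, had log2 levels of 10.84, 10.69 and 10.73 in mock and 10.49, 10.52 and 10.48 in wild-type cells. In clone 7 they were 10.10, 10.12 and 10.46, and in clone 8 10.33, 10.45 and 10.02, so that each clone array lay below each control array. HADH fell by 0.50 ± 0.10 on the log2 scale against mock, 1.42-fold (limma adjusted p = 0.0107), with log2 -0.52 in clone 7 and log2 -0.48 in clone 8. Leaving out the clone arrays numbered 3, the fall was the same in size (log2 -0.50, adjusted p = 0.000189), with clone 7 called lower at log2 -0.64 and clone 8 at log2 -0.36. The fall did not pass without mock replicate 1 (adjusted p = 0.0753), and with 1 array left out it was lost in 5 of 12 fits for clone 7 alone and in 8 of 12 for clone 8 alone. Against wild-type the clones were at log2 -0.25 (adjusted p = 0.135).

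EHHADH, the bifunctional hydratase and dehydrogenase of peroxisomes, was at 7.52, 7.57 and 7.53 in mock and 7.90, 7.96 and 7.98 in wild-type cells. In clone 7 it was at 8.32, 8.36 and 7.83, and in clone 8 at 7.71, 8.03 and 7.97. Mock was again the lowest group, and the clones overlapped wild-type. The rise over mock was log2 0.50 ± 0.11, 1.41-fold (limma adjusted p = 0.0168), and in clone 7 alone it was called (log2 0.63, 1.55-fold, adjusted p = 0.0168). Without any 1 of the mock arrays the difference of the clones did not pass (adjusted p from 0.0771 to 0.0875). The call in clone 7 was lost in the same fits, without clone 7 replicate 1 or without clone 7 replicate 2. After removal of the clone arrays numbered 3, EHHADH was at log2 0.57 in the clones against mock (adjusted p = 0.00047). Of the other members of this step, HADHA and HADHB, the trifunctional protein's subunits, were at log2 0.03 and 0.15, and AUH at -0.02, and 0 of the 3 passed. The group means of HADHA lay within 0.03 of each other.

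Transamination and decarboxylation, the entry to the pathway, had 1 of 6 members past the adjusted p in the clones against mock. This was DLD, the dihydrolipoamide dehydrogenase shared by several keto acid dehydrogenase complexes. Mock arrays read 11.26, 11.30 and 11.34 and wild-type arrays 11.05, 11.16 and 11.15. Clone 7 read 11.19, 11.10 and 11.12, and clone 8 read 10.85, 11.10 and 11.08. The clones lay below mock and overlapped wild-type. The fall was log2 -0.23 ± 0.06 (limma adjusted p = 0.0492) and did not pass in 11 of 20 alternative settings, among them the replicate block (adjusted p = 0.0718). BCKDHB, the beta subunit of the decarboxylase, lay below the control arrays on each clone array. It was at log2 -0.24 against mock (adjusted p = 0.135) and log2 -0.35 ± 0.09 against wild-type (adjusted p = 0.0245), which was lost without any 1 of the wild-type arrays (adjusted p from 0.0531 to 0.141). Its partner BCKDHA was at log2 0.25 (adjusted p = 0.188), BCAT1 at 0.21 (adjusted p = 0.53) and BCAT2 at -0.24 (adjusted p = 0.405), and DBT, the transacylase core, also did not pass.

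**Figure D3:**
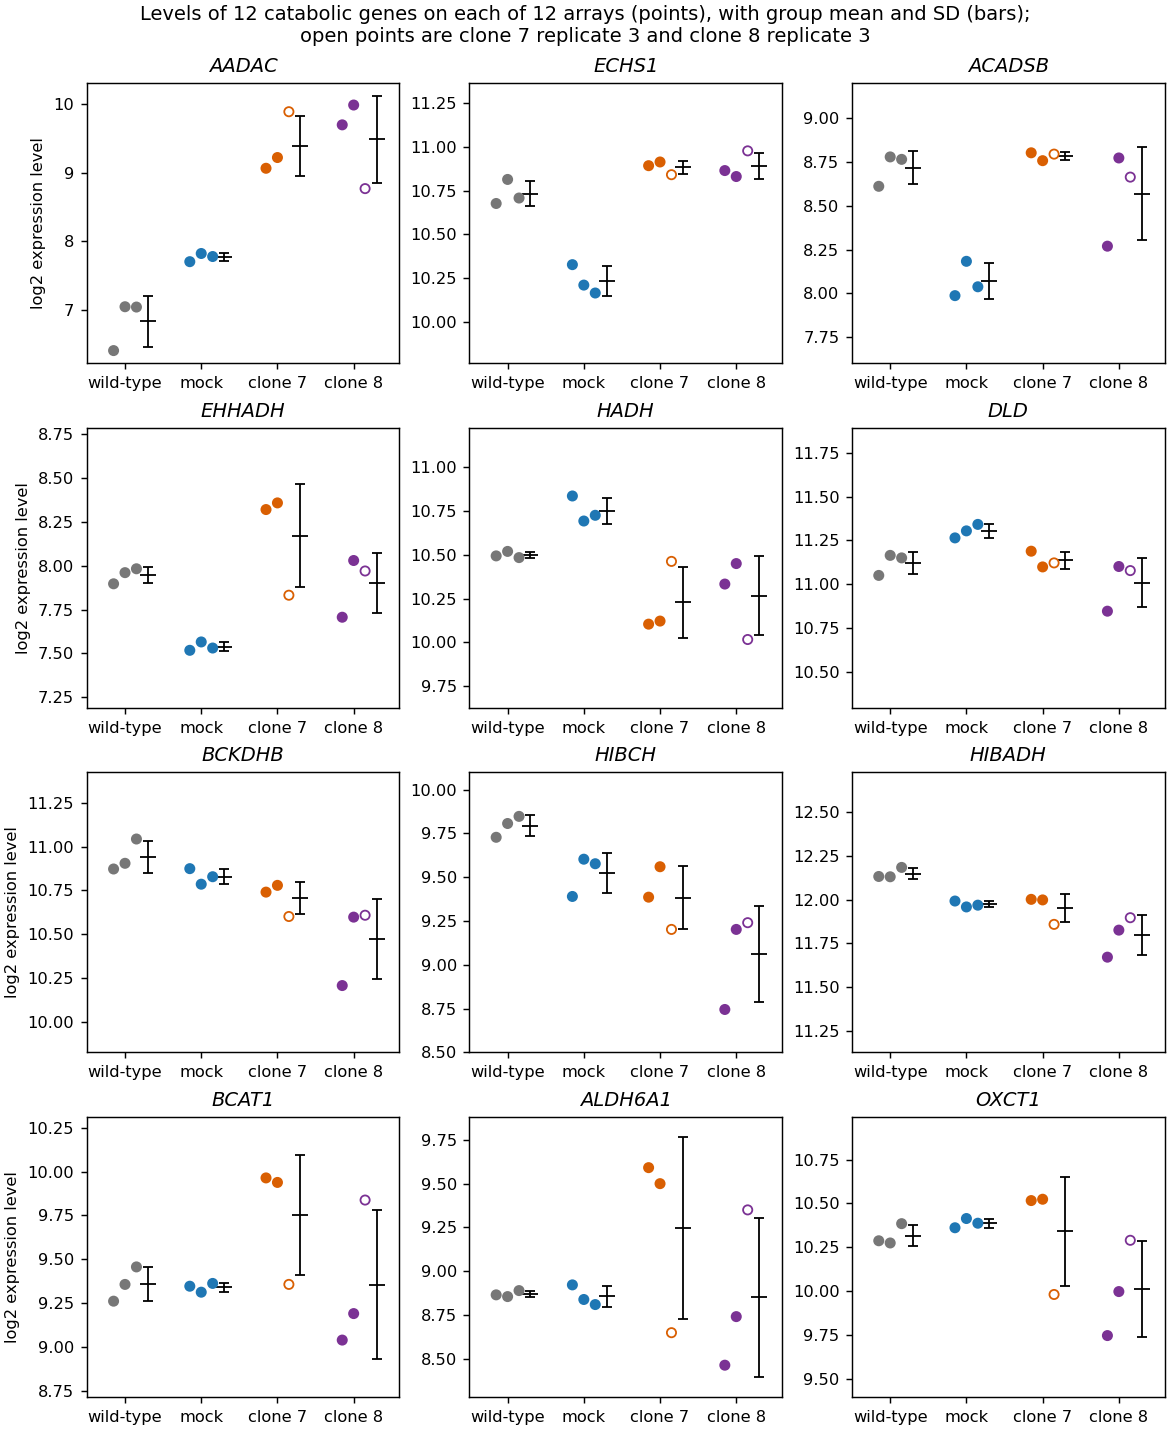
Log2 level of 12 of the genes on each of the 12 arrays, with the mean and SD of each group of 3 beside the points. Open points are clone 7 replicate 3 and clone 8 replicate 3, and in BCAT1, ALDH6A1, OXCT1, HADH and AADAC each open point lies nearer to the filled points of the other clone than to those of its own.

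In the remaining steps, 0 genes passed against mock. Of the 32 genes that did not pass the adjusted p there, 31 had a 95% interval inside 1.5-fold in both directions, the exception being ALDH6A1. The acyl-CoA dehydrogenases IVD, ACAD8, ACADS and ACADM ranged from log2 -0.02 to 0.09, with intervals from -0.17 to 0.27. The propionyl-CoA carboxylase subunits PCCA and PCCB and the epimerase MCEE ranged from -0.12 to 0.00, and the succinyl-CoA ligase subunits SUCLG1, SUCLG2 and SUCLA2 from -0.12 to -0.02. MCCC1 and MCCC2, the subunits of methylcrotonyl-CoA carboxylase of leucine breakdown, were at -0.09 and -0.02. Among the ketone body enzymes BDH1, BDH2, OXCT1 and ACAT1 the range was -0.21 to 0.03, OXCT1 being the lowest. ABAT and ALDH5A1, which degrade GABA, were at 0.16 and 0.02. ACSM3, a butyrate-CoA ligase, had group means from 6.29 to 6.47, under the lower quartile in each group. ALDH2 and ALDH7A1, aldehyde dehydrogenases of wider use, were both at 0.09.

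At the end of valine breakdown, HIBCH and HIBADH were lower in the clones than in wild-type cells. Mock, too, lay below wild-type in both genes with no overlap (log2 -0.27 and -0.18), though neither difference passed. HIBCH, which releases hydroxyisobutyrate from its CoA ester, had log2 levels of 9.73, 9.81 and 9.85 in wild-type cells and 9.39, 9.60 and 9.58 in mock. In clone 7 it was at 9.39, 9.56 and 9.20, and in clone 8 at 8.74, 9.20 and 9.24. Each clone array thus lay below the wild-type arrays, with overlap with mock. The difference from wild-type was log2 -0.57 ± 0.11, 1.49-fold (limma adjusted p = 0.00642), and that from mock was log2 -0.30 (adjusted p = 0.137). HIBADH, which oxidizes the product, averaged 12.15 ± 0.03 (SD, n = 3) in wild-type cells and 11.97 ± 0.02 in mock, against 11.95 ± 0.08 for clone 7 and 11.80 ± 0.12 for clone 8. Its difference between the clones and wild-type was log2 -0.27 ± 0.06 (limma adjusted p = 0.012), lost without wild-type replicate 2 (adjusted p = 0.0506) or replicate 3 (adjusted p = 0.0739). Against mock the clones were at log2 -0.10 in HIBADH, which did not pass. ALDH6A1, the last enzyme of this branch, was at log2 0.18 against wild-type and 0.19 against mock, neither of which passed.

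In the clones against wild-type as a whole, 1 of 38 was called, AADAC, beside 1.58% of all genes (0.907% higher and 0.673% lower). By the adjusted p alone 1 rose and 3 fell (BCKDHB, HIBCH and HIBADH), which is 10.5% of the member genes against 9.95% of all genes (4.63% higher and 5.32% lower). In mock against wild-type, 1 of 38 was called, ACADSB, and it was lower, beside 0.673% of all genes (0.299% higher and 0.375% lower). By the adjusted p alone 2 passed, ACADSB and ECHS1, both lower, beside 2.24% of all genes (1% higher and 1.24% lower). Of the 36 genes off the end of chromosome 10, 0 passed there by limma over all arrays, and 6 had an unadjusted p under 0.05. The share of all genes at that unadjusted limit is not given here, so the 6 cannot be read as a shift of the members. EHHADH (log2 -0.41, adjusted p = 0.133) and HADH (log2 0.25, adjusted p = 0.397) lay on the opposite side of 0 from their differences in the clones against mock. The comparisons share the mock arrays, so these signs are not independent.

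Taken by clone, 4 of 38 were called higher and 0 lower in clone 7 against mock (AADAC, ECHS1, ACADSB and EHHADH), beside 0.7% of all genes (0.467% higher and 0.233% lower). In clone 8, 2 were called higher and 0 lower (AADAC and ECHS1), beside 0.76% (0.304% higher and 0.456% lower). With the adjusted p alone, 4 were higher and 1 lower in clone 7, beside 3.14% of all genes (1.82% higher and 1.32% lower). In clone 8, 3 were higher and 2 lower, beside 5.09% (1.97% higher and 3.12% lower). In the fit lacking the clone arrays numbered 3, 6 rose and 1 fell past both limits in clone 7 against mock, beside 2.17% of all genes. ALDH6A1 (log2 0.69) and BCAT1 (log2 0.61) were then among those higher. In clone 8 against mock, 2 rose and 1 fell, beside 2.06%, the fall being BCAT2 (log2 -0.62). With the adjusted p alone, 4 rose and 9 fell in clone 8, beside 4.93% and 8.73% of all genes. Among the 9 were OXCT1 (log2 -0.52) and the carboxylase subunits MCCC1 (log2 -0.34) and PCCB (log2 -0.30).

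As labelled, clone 8 and clone 7 differed in 0 of 38 genes by limma, and 0 of all genes, at an adjusted p under 0.05. At an unadjusted p under 0.05, 9 of 38 differed, and 1328 of all genes. Of the 38 genes, 32 were lower in clone 8 (84.2%, beside 46.3% of all genes), with a median log2 difference of -0.14, against 0.01 over all genes. Clone 8 replicate 1 was the lowest array for these genes, with 29 of 38 below the mock mean and a median of log2 -0.21 from it. The share of all genes below the mock mean on this array is not given here. Over all probe sets, this array had the narrowest range between its quartiles (3.13, the widest array having 3.36) and the highest lower quartile (7.12). The part of this in the low member levels was not tested. Without clone 8 replicate 1 the median difference between the clones was log2 -0.07.

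Without the clone arrays numbered 3, a larger difference between the clones appeared in the same genes, given here as a description, with 2 arrays a clone and p-values that are too small. The median was then log2 -0.24 for the 38 genes against 0.03 over all genes, with 30 of 38 lower in clone 8. In this fit 15 members passed the adjusted p as lower in clone 8 and 2 as higher, the lower ones beside 10.7% of all genes and the higher ones beside 6.52%.

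The genes in this paragraph were chosen after their values were seen. ALDH6A1, which ends valine breakdown, was at 9.59 and 9.50 on clone 7 replicates 1 and 2, at 8.46 and 8.74 on clone 8 replicates 1 and 2, at 8.65 on clone 7 replicate 3 and at 9.35 on clone 8 replicate 3. BCAT1 was at 9.96 and 9.94, at 9.04 and 9.19, at 9.36 and at 9.84 on the same arrays. OXCT1, which activates ketone bodies, was at 10.52 and 10.52, at 9.75 and 10.00, at 9.98 and at 10.29. In each of these genes the arrays numbered 3 lay nearer the other clone, and without them the clones differed by log2 -0.94, -0.84 and -0.65, clone 8 being lower. BCAT2 (log2 -0.67), MCCC1 (log2 -0.55), PCCA (log2 -0.46) and PCCB (log2 -0.40) had the same direction. AADAC (log2 0.70) and HADH (log2 0.28) were higher in clone 8. ECHS1 was at log2 -0.06 between the clones.

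**Figure D4:**
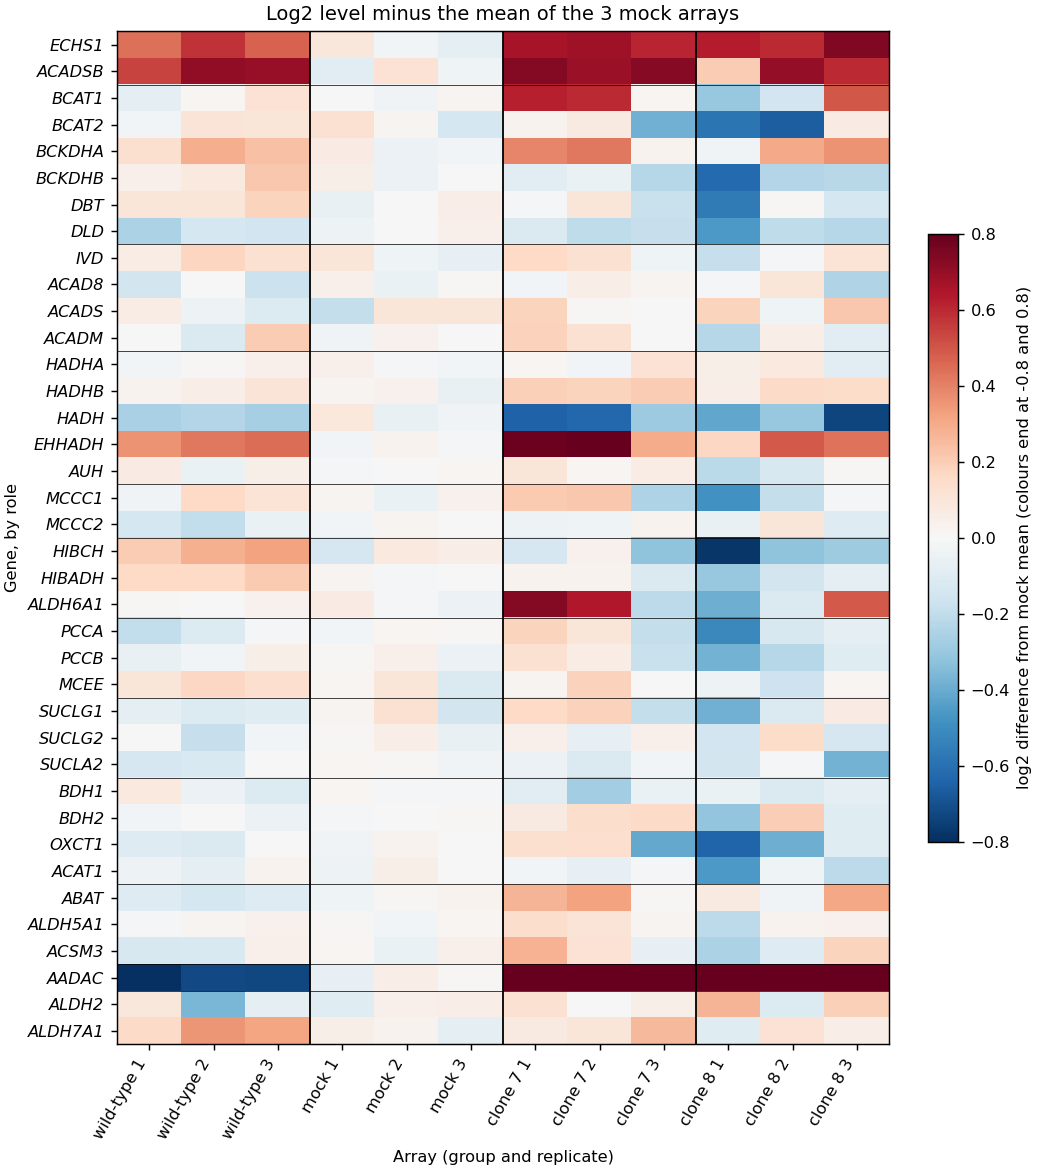
Log2 level of each of the 38 genes on each of the 12 arrays minus its mean in mock, ordered by role, with colours ending at 0.8 in both directions. Clone 8 replicate 1 is bluest, and clone 7 replicates 1 and 2 share red cells in BCAT1 and ALDH6A1 with clone 8 replicate 3.

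Of 35 other listed genes of these pathways, 29 were measured. In the clones against mock 0 were called higher and 2 lower, and 3 fell by the adjusted p alone, with a median log2 difference of -0.07. ELOVL6, a fatty acid elongase, averaged 11.08 ± 0.05 (SD, n = 3) in mock and 11.19 ± 0.02 in wild-type cells, against 10.37 ± 0.10 for clone 7 and 10.13 ± 0.29 for clone 8. It fell by 0.83 ± 0.10 on the log2 scale against mock, 1.78-fold (limma adjusted p = 0.000563). ACAT2, the cytosolic thiolase, fell by 0.68 ± 0.09, 1.60-fold (adjusted p = 0.000981), and HMGCS1, the cytosolic hydroxymethylglutaryl-CoA synthase, by 0.49 ± 0.07 (adjusted p = 0.0019). The clone arrays lay below each control array in these 3 genes, whose products act in lipid and sterol synthesis, and also in HSD17B10, a dehydrogenase of isoleucine breakdown. HSD17B10 was at log2 -0.15 against mock (adjusted p = 0.16) and at log2 -0.38 against wild-type (adjusted p = 0.00143). ELOVL6 and ACAT2 were also among the study's butanoate genes on these arrays. Both were also called when the clone arrays numbered 3 were left out (log2 -0.88 and -0.71). The mitochondrial thiolase ACAT1, by contrast, was at log2 -0.13 against mock and did not pass.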

How the data were processed

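Values were those the authors deposited, log2 expression levels per probe set on 12 arrays, already summarized and normalized. Partek is named in the submitters' processing notes, while the way they were normalized was not stated in the sources used here. The values used here carried no detection calls, and precision is limited by how many arrays there are. Of 33297 probe sets, 19460 carried a single gene symbol, which gave 18417 genes. MCCC2 had a second probe set with the same group means. The second probe set of ALDH6A1 lay under the lowest lower quartile of an array. Its group means were 6.44 for wild-type, 6.48 for mock, 6.87 for clone 7 and 6.49 for clone 8. Groups followed the sample titles. Each gene was fitted by group means (4 groups, 6 contrasts) using lmFit and eBayes of limma 3.58.1 under R 4.3.3, with Benjamini-Hochberg adjustment over all genes, and was tested on simulated data. Errors are SE of the model or SD over arrays. Values on each array are given for genes called in any contrast or past the adjusted p in the clones against mock, and for a few others named for the comparison with wild-type or between clones. Promoter windows came from RefSeq, and 1 window is not reported here. Member genes and lists were chosen with earlier results of these data known. The replicate block, normalization, array weights, filters and left-out arrays were alternatives. Leaving out both clone arrays numbered 3 was chosen after seeing the data.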

Additional observations from a re-analysis of the deposited data

How the results depend on the processing

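Over 20 settings, 22 differences of member genes were followed. None reversed. A called difference held if it stayed called, and one past the adjusted p alone held if it still passed. Of the 440 resulting values, 364 held and 67 did not. Another 9, past the adjusted p alone in the main fit, became calls. ECHS1 and AADAC against mock held in each setting for the clones together. With array weights, calls past both limits were 7 in clone 7 against mock, 2 in mock against wild-type and 2 in the clones against wild-type. The shares of all genes called were 1.88%, 1.09% and 1.89%. By adjusted p alone there were 12 in the clones against mock, 15 in clone 7, 10 in mock against wild-type and 8 in the clones against wild-type. These stood beside 19.2%, 29.5%, 13% and 21.4% of all genes. With the compared groups fitted alone, mock against wild-type had 2 calls, beside 1.09% of all genes, and 9 by adjusted p, beside 10.6%. In that setting clone 8 against mock had 2 by adjusted p, beside 0.809%. At an unadjusted p under 0.001 and 1.3-fold there were 5 calls in the clones against mock, 2 in mock against wild-type and 2 in the clones against wild-type. The share of all genes by that rule is not given here, so these counts have nothing to be set beside.

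Without both clone arrays numbered 3, counts past both limits and by adjusted p were 7 and 9 in clone 7 against mock, 5 and 17 in clone 8 against clone 7, and 2 and 6 in mock against wild-type, beside 14.3%, 17.2% and 7.07% of all genes by adjusted p. Past both limits the shares of all genes were 2.17%, 3.35% and 1.08%. By adjusted p the counts were 13 in clone 8 against mock and 8 in the clones against wild-type, beside 13.7% and 17.1% of all genes. With 1 array left out, counts past both limits ranged from 2 to 3 in the clones against mock, 2 to 6 in clone 7, 2 to 3 in clone 8, 0 to 2 in mock against wild-type and 1 to 2 in the clones against wild-type, and stayed 0 between the clones. Over the same fits, the shares of all genes were 0.581% to 0.966%, 0.483% to 1.5% and 0.478% to 1.5% against mock. They were 0.521% to 0.831% in mock against wild-type and 1.24% to 1.86% in the clones against wild-type. By adjusted p the counts ranged from 3 to 7, 2 to 7, 2 to 9, 1 to 3 and 2 to 7 in the same order. The shares of all genes ranged from 1.99% to 11.5%, 0.988% to 5.3%, 1.21% to 18.2%, 0.896% to 3.34% and 4.21% to 19%. The lowest count in each comparison with mock was without mock replicate 1, which alone took mock against wild-type to 0 calls and clone 7 to 2. By adjusted p, the 9 in clone 8 and the 7 in the clones against wild-type were without clone 8 replicate 2. In that fit 18.2% and 19% of all genes passed in these 2 comparisons. Leaving out mock replicate 2 or 3 also gave 2 in clone 8, beside 1.21% and 1.48% of all genes. Leaving out wild-type replicate 2 or 3 gave 2 in the clones against wild-type, beside 4.21% and 4.25%. The cause was not tested.

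The replicate numbers gave no clear sign of pairing the arrays. Same-numbered arrays of different groups had a median correlation of -0.04 in their deviations, against 0.01 for arrays of different numbers. The range for the same number was -0.83 to 0.45. Its low end is the pair of clone arrays numbered 3, each like the other clone, so that this end says nothing about pairing. With the replicate block, clone 8 against mock had 3 members by adjusted p, beside 2.71% of all genes.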

Other observations

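Of 11 measured tricarboxylic acid cycle genes, 0 passed the adjusted p in the clones against mock by limma (1 at an unadjusted p under 0.05), and 9 lay below mock, with a median log2 difference of -0.06. IDH2, the mitochondrial NADP-dependent isocitrate dehydrogenase, was the nearest at log2 -0.36 ± 0.10 (adjusted p = 0.0589). It passed in clone 8 alone (log2 -0.45, adjusted p = 0.0482) and in the clones against wild-type (log2 -0.38, adjusted p = 0.035). Of 13 fatty acid oxidation genes, 0 passed in any of the 6 contrasts by limma over all arrays, with 0 to 2 at an unadjusted p under 0.05. Of 5 transporters of branched-chain amino acids, 0 passed against mock (1 at an unadjusted p under 0.05), and SLC7A5 and SLC43A2 were each log2 0.26 above wild-type (adjusted p = 0.0155 and 0.0172). SLC43A2 was already higher in mock (log2 0.34, adjusted p = 0.0222).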
